A study of Tegula funebralis with 16 samples.

Results

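The proteasome is the barrel-shaped protease that degrades proteins tagged with ubiquitin, and 28 of the 15903 assembled contigs of the marine snail Chlorostoma (Tegula) funebralis were named for it. They were chosen as the contigs whose name in the table contains the word proteasome and whose mean normalised read count over all libraries was at least 10, a minimum that every name match passed. By name, 11 belong to the 20S core (5 alpha and 6 beta subunits), 11 to the 19S regulatory particle (10 non-ATPase subunits and 1 ATPase) and 6 are accessory: activators, an inhibitor and assembly factors. Contigs are stretches of transcript put together from the reads, so 2 of the same name may come from 1 gene, and reads could be shared between close copies. Members are called here by the human gene symbols that match the names, such as PSMA1 for alpha type 1.

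In the core particle, alpha subunits form the gated outer rings and beta subunits the inner rings that hold the cutting sites. The regulatory particle binds ubiquitin-tagged proteins, removes the ubiquitin and unfolds the chain with its ring of ATPases. Heat unfolds proteins, and in animals of the rocky intertidal the tagging and removal of damaged proteins is a classic part of the response to a hot low tide.

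RNA was sequenced from whole animals of 4 Californian sites, the northern Slide Ranch and Pigeon Point and the southern Aliso Beach and La Jolla. Controls spent 5.5 hours in air at 15 °C, and heated animals spent the same time in air that warmed from 15 °C by 3 °C every 0.5 hours to 34 °C and then stayed there. Each site and treatment had 2 libraries, which gave 8 groups and 16 libraries, with 17594009 to 26103215 reads recovered per library. RNA was extracted per individual, per the labels' protocols, but how many animals a library holds is not given in the sources used here, so the p-values below cover the variation among single libraries only, which may be technical. The labels name no other factor that differs between the groups.

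Of the libraries, 4 stood apart from the other 12, the first ones of Pigeon Point and La Jolla in each treatment: a single contig, SR_contig_83, took 16.6% to 39.2% of their reads and 1.58% to 6.80% elsewhere. Results are therefore given over all 16 libraries and over those 12, a choice made after the data were seen, and in the 12 the lone library left in 4 of the groups is assumed to vary like the rest. Of the contigs picked by name as markers of tissues of a whole animal, 24 of muscle, 26 of ovary and egg, 35 of testis and sperm, 33 of digestive gland enzymes and 2 of blood pigment, none was at 0 in all libraries. In bulk RNA of this kind, fewer cells of a type and less RNA per cell cannot be told apart.

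**Figure D1:**
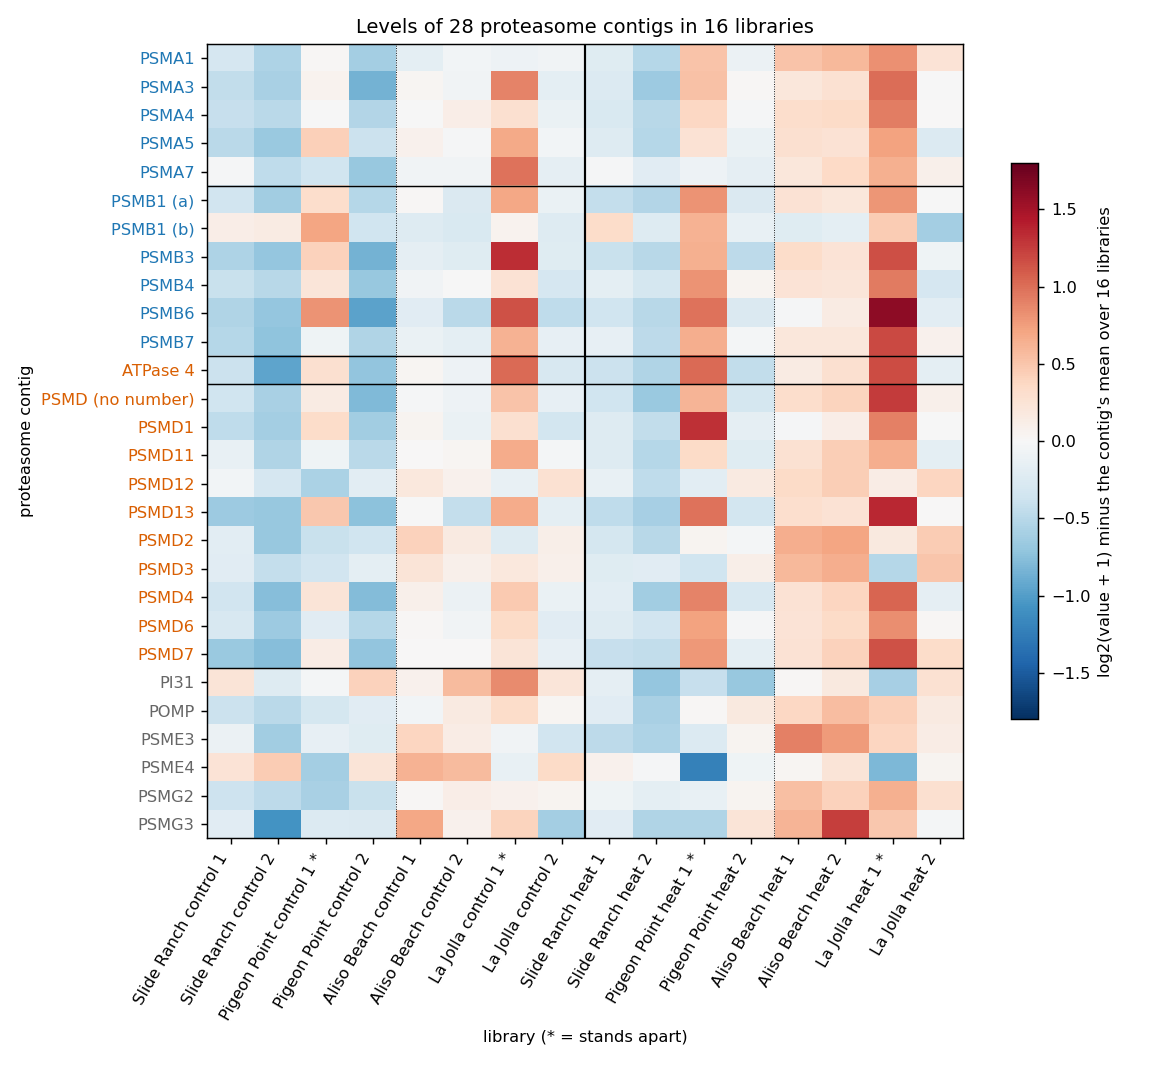
Each row is 1 of the 28 proteasome contigs, each column 1 of the 16 libraries, and colour is log2(value + 1) minus the contig's mean over the libraries (blue row names: core; orange: regulatory; grey: accessory; vertical line: controls left, heated right; dotted lines: northern left, southern right). The 4 starred libraries are red in most core and regulatory rows. Among the others the second controls of Slide Ranch and Pigeon Point are the bluest, with means of -0.55 and -0.48. The second heated library of Slide Ranch follows at -0.46.

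Under heat, the core and regulatory contigs lay above their controls by a small and similar amount. None of the 28 passed the limma test over 16 libraries, in which replicate numbers were not taken as pairs. The calls with those numbers as a block are given in the part on processing. All 11 core and all 11 regulatory contigs had a heat effect above 0 (10 of 11 core in edgeR and under TMM scaling), with medians of 0.28 and 0.33 on the log2 scale, averaged over the 4 sites. Over all 28 the median was 0.29 and 26 were above 0, against a median of 0.00 and 50.1% above 0 for the 14444 contigs tested. In limma 0 of 28 had an adjusted p under 0.05, against 4.24% of all contigs. An unadjusted p under 0.05 in limma was reached by 8 members, and by 2662 of all 14444 contigs. On all 16 libraries edgeR called 0 and DESeq2 2, PSMG2 and PSMA1. Of all contigs edgeR called 4.33%, and DESeq2 9.09%, with 4.66% higher. In the 12 other libraries 12 rose and 0 fell, against 18.8% of all contigs called in either direction and 10.6% called higher, with the members' median at 0.28. Those that rose there were 7 core subunits (PSMA1, PSMA3, PSMA7, PSMB3, PSMB4, PSMB6 and PSMB7), 4 regulatory ones (PSMD1, PSMD3, PSMD6 and PSMD7) and the assembly chaperone PSMG2. No member was without overlap between the 8 controls and the 8 heated libraries, where 1.17% of all contigs were higher and 1.02% lower. The heat effect had the same positive sign at all 4 sites for 17 of 28 members (60.7%), against 20.7% of all contigs. This share was not particular to the proteasome. It was 60.6% for digestive gland enzymes, 81.4% for ribosomal proteins, 92.3% for ovary and egg and 100% for the folding chaperonin CCT. For muscle it was 23.8%, for testis and sperm 11.4% and for blood pigment 0%.

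**Figure D2:**
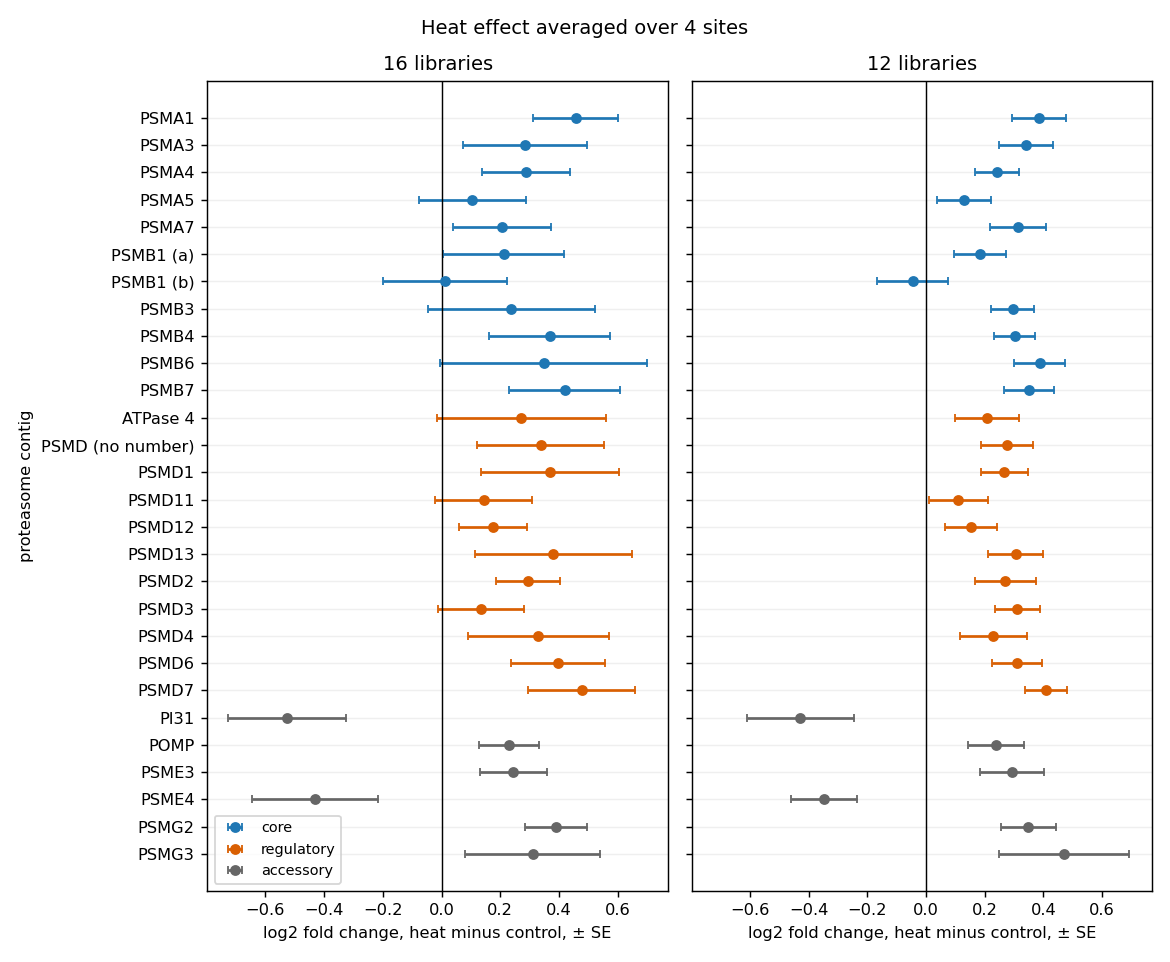
Points are log2 fold changes of heated over control libraries averaged over the 4 sites, bars are standard errors, and colour gives the particle, over all 16 libraries (left) and over the 12 others (right). The median of the 28 is 0.29 on the left and 0.28 on the right, the bars are shorter on the right for most contigs, and PI31 and PSME4 are the 2 contigs below 0 on the left.

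Among the alpha subunits, PSMA1 (SR_contig_23262) had the largest heat effect. Values are normalised read counts of the first and second library of a group, and go from north to south: Slide Ranch, Pigeon Point, Aliso Beach, La Jolla. PSMA1 had 693 and 582, 867 and 557, 759 and 824, and 805 and 822 in controls. In heated snails it had 733 and 597, 1223 and 796, 1219 and 1277, and 1515 and 1013. Both heated southern pairs lay above every control, and the Slide Ranch pairs overlapped. The log2 fold change was 0.46 ± 0.14 (SE), with an adjusted p of 0.116 in limma over 16 libraries and of 0.021 over 12.

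PSMA4 (SR_contig_305) ran from 1217 to 2154 with a median of 1686 in the 8 controls and from 1252 to 3334 with a median of 1979.8 in the 8 heated libraries, a log2 fold change of 0.29 ± 0.15 (SE). PSMA7 (SR_contig_8950) ran from 2092 to 6657 (median 3114) in controls and from 2909 to 5253 (median 3459.6) in heat, a log2 fold change of 0.21 ± 0.17 (SE). Its highest value was a control, the first of La Jolla, and the ranges of both contigs overlapped widely between treatments. The other alpha contigs, PSMA3 and PSMA5, had log2 fold changes of 0.28 and 0.10.

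Among the beta subunits, PSMB7 (SR_contig_14106), which carries the trypsin-like cutting site, had the largest heat effect. From north to south its controls had 2924 and 2523, 3919 and 2849, 3813 and 3669, and 6424 and 3747. In heat it had 3766 and 3004, 6517 and 4048, 4778 and 4787, and 9462 and 4400.2. At every site but La Jolla both heated libraries were above both controls, and at La Jolla the first control was above the second heated library. The log2 fold change was 0.42 ± 0.19 (SE) over 16 libraries (adjusted p 0.263 in limma) and 0.35 ± 0.08 over 12 (adjusted p 0.022).

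PSMB4 (SR_contig_6723), a structural beta subunit, ran from 1320.0 to 2539 (median 1880.1) in controls and from 1709 to 4061 (median 2334) in heat, a log2 fold change of 0.37 ± 0.21 (SE). Without the 4 libraries it rose by 0.30 ± 0.07 (limma adjusted p 0.019). PSMB6 (SR_contig_8141), which carries the caspase-like site and was singled out after its values were seen, had the widest error of all members: 0.35 ± 0.35 (SE) over 16 libraries, but 0.39 ± 0.09 over 12. At the other end, 2 contigs were named beta type 1, of which PSMB1 (a) (SR_contig_22325) had a heat effect of 0.21 ± 0.21 and PSMB1 (b) (SR_contig_5096_C3.1) 0.01 ± 0.21, which lay below 0 under TMM scaling, in edgeR and, at -0.05, in the 12 libraries. Whether both come from 1 gene is not given in the sources used here.

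In the regulatory particle, PSMD7 (SR_contig_38489), the partner of the subunit that cuts ubiquitin off, had the largest heat effect of all 28. From north to south its controls were at 1100.0 and 1034, 1921 and 1074, 1769 and 1767, and 2060.5 and 1592. Its heated libraries were at 1322 and 1293, 3005 and 1561, 2097 and 2337, and 3901 and 2212. At every site but Pigeon Point both heated libraries were above both controls. The log2 fold change was 0.48 ± 0.18 (SE) with a limma adjusted p of 0.186, and in the 12 libraries 0.41 ± 0.07 with an adjusted p of 0.005.

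PSMD6 (SR_contig_4090), a lid subunit, ran from 2257 to 4517 (median 3084) in controls and from 2809 to 6366 (median 3917) in heat, a log2 fold change of 0.40 ± 0.16 (SE). PSMD1 (SR_contig_142_C3.1), a large scaffold subunit of the base, ran from 2635 to 5115 (median 3460.1) in controls and from 2966 to 10098 (median 4010.2) in heat, a log2 fold change of 0.37 ± 0.24 (SE). Its top value, 10098, was the first heated library of Pigeon Point, where the second had 3603. The only member named as an ATPase, ATPase 4 (SR_contig_15415), ran from 883 to 3442 (median 1493) in controls and from 1162 to 3829.7 (median 1699.8) in heat, a log2 fold change of 0.27 ± 0.29 (SE) over 16 libraries and 0.21 ± 0.11 over 12, where its adjusted p in limma was 0.207. The other 7 regulatory contigs had log2 fold changes from 0.13 (PSMD3) to 0.38 (PSMD13), among them 0.33 for PSMD4, a receptor for ubiquitin chains, and 0.29 for PSMD2, a scaffold subunit where ubiquitin-carrying proteins dock.

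Most ATPases of the ring were not members, since the table names them 26S protease regulatory subunits, without the word proteasome. Those 5 contigs, 6a-like, 6b, 7, 8 and 10b-like, had heat effects from 0.20 to 0.49 with a median of 0.31 on the log2 scale. Limma called 0 of 5, as did edgeR and DESeq2, and 1 had an unadjusted p under 0.05, where 2662 of all 14444 contigs did in limma. In the 12 libraries 3 of the 5 rose, 6a-like, 6b and 8, with log2 fold changes of 0.37, 0.32 and 0.40, where 18.8% of all contigs were called and 10.6% called higher.

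**Figure D3:**
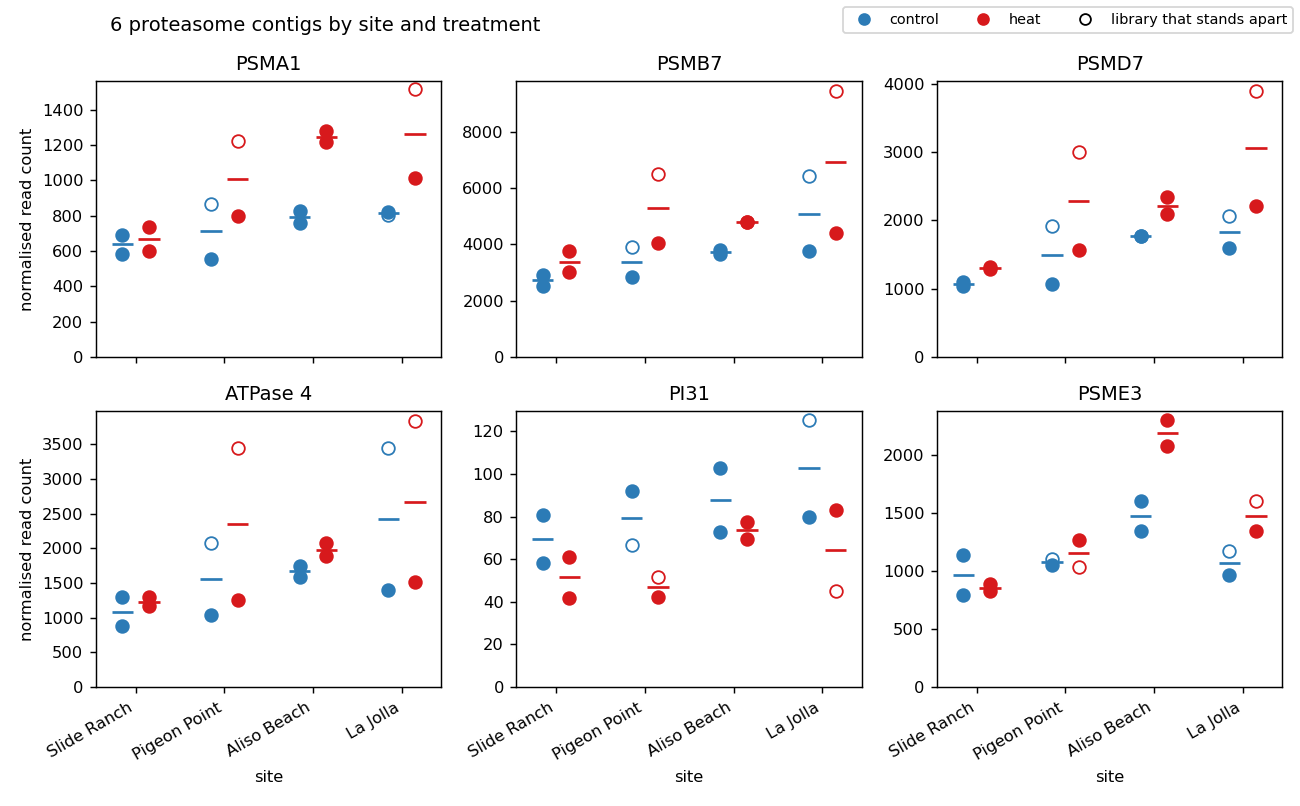
Normalised read counts of 6 proteasome contigs, the one with the largest heat effect in each role and PSME3, by site (blue: control; red: heat; open circles: libraries that stand apart; bars: mean of 2). PSMD7 has 1100.0 and 1034 in the Slide Ranch controls and 1322 and 1293 in the heated pair, PI31 is lower in the heated than in the control mean at every site, and PSME3 is highest in the heated libraries of Aliso Beach, at 2304 and 2080.4.

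The accessory contigs did not move as 1 group. The proteasome inhibitor subunit PI31 (SR_contig_133505) had the lowest heat effect of the 28, from 80.9 and 58.3, 66.8 and 92.1, 72.7 and 103, and 125 and 79.9 in controls, north to south, to 61.1 and 41.9, 51.4 and 42.3, 69.6 and 77.6, and 45.1 and 83.3 in heat. Its site means were lower in heat at all 4 sites, while the ranges of the treatments overlapped. The log2 fold change of -0.52 ± 0.20 (SE) did not pass (limma adjusted p 0.189, and 0.134 over 12 libraries).

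PSME4 (SR_contig_19554), the activator known as PA200 in mammals, ran from 87.1 to 207 (median 164) in controls and from 56.9 to 157 (median 135) in heat. Its log2 fold change was -0.43 ± 0.21 (SE; limma adjusted p 0.314). In the 12 libraries each of its 6 controls lay above each of its 6 heated libraries, as for 3.3% of all contigs, while no member was higher in this way, as 3.2% of all contigs were. There its log2 fold change was -0.35 ± 0.11 (adjusted p 0.061).

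The 3 assembly factors had fold changes above 0, and none passed in limma over 16 libraries. POMP (SR_contig_2003), a maturation factor of the core, ran from 953 to 1684 (median 1225) in controls and from 894 to 1961 (median 1506) in heat. Its log2 fold change was 0.23 ± 0.10 (SE). The assembly chaperone PSMG2 (SR_contig_1721_C3.1), singled out after its values were seen, had the smallest adjusted p of the 28 in limma, 0.066, for a log2 fold change of 0.39 ± 0.11 (SE). It was at 190.2 to 308 in controls and at 251 to 445 in heat, and the heated mean was higher at all 4 sites. PSMG3, another chaperone of core assembly, had 0.31 ± 0.23. The activator PSME3 had 0.25 ± 0.11 and is described with the regions.

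The core and the regulatory particle had similar median heat effects. The median of the core minus that of the regulatory contigs was -0.05 over the 4 sites, with a spread between sites of 0.10 (SD, n = 4), and 0.03 in the 12 libraries. From north to south the 4 sites had differences of -0.01, -0.04, 0.01 and -0.22 over 16 libraries. In the 12 libraries Pigeon Point was at 0.10 and La Jolla at -0.09. With the 5 protease-named ATPases counted as regulatory, the difference over the 4 sites in 16 libraries was -0.04. Single effects had an SD of 0.13 over the 11 core and 0.11 over the 11 regulatory contigs. These medians are descriptions of chosen lists, with no test.

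The size of the effect among the 28 varied between sites, which was not tested. Going from north to south, the median heat effect was 0.12, 0.41, 0.34 and 0.30, and 21, 26, 26 and 21 of the 28 contigs were above 0. Without the 4 libraries Pigeon Point was at 0.43 and La Jolla at 0.18. By region the medians were 0.25 in the north and 0.29 in the south. Single libraries moved both: the northern median ran from 0.11 (without the first heated library of Pigeon Point) to 0.39 (without the second), and the southern from 0.07 (without the first heated library of La Jolla) to 0.52 (without the second). Leaving out a control of those sites also moved them, to 0.39 and 0.12 without the first and second of Pigeon Point and to 0.44 and 0.16 without those of La Jolla. Limma called 0 of 28 in the north, against 1.87% of all contigs, and 0 of 28 in the south, against 1.73%. An unadjusted p under 0.05 in limma was reached by 1 and 4 members, and by 1586 and 1454 of all 14444 contigs. EdgeR and DESeq2 called 0 in each region. In the 12 libraries PSMB4 and PSMD7 rose in the north (9.24% of all contigs called) and 0 of 28 in the south (5.01%). The difference between the regions' heat effects was tested itself: 0 of 28 passed in limma, edgeR or DESeq2, as did 0% of all contigs in limma (0 of 28 and 0.0138% in the 12 libraries), and 1 member, PSME3, had an unadjusted p under 0.05 with a southern minus northern effect of 0.55 ± 0.23 (SE).

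Unheated southern snails lay above unheated northern ones in nearly every proteasome contig, but no single contig passed the test over 16 libraries. Each region is only 2 sites, here and in the heated snails. The p-values take their error from the libraries within a site and treatment, and leave out the spread between sites of a region. The 28 contigs were measured in the same libraries, so their signs are not independent of each other. The southern controls were higher for 27 of 28, with medians of 0.43 for the core, 0.46 for the regulatory and 0.40 for the accessory contigs on the log2 scale. Over all 28 the median was 0.45 (0.30 without the first La Jolla control), against -0.01 over all contigs, of which 48.3% were above 0. The exception was PSMB1 (b), at -0.32 ± 0.30 (SE). None of the 28 passed in limma over 16 libraries, where 0.263% of all contigs did. An unadjusted p under 0.05 in limma was reached by 5, and by 1336 of all 14444 contigs. EdgeR called 0 and DESeq2 1, PSMG2, where DESeq2 called 2.4% of all contigs.

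In the 12 libraries the regional difference between controls was of the same size, with a median of 0.40. There PSMA3, PSMA4, PSMB3 and PSMD7 were higher in the south, 4 of 28 against 4.17% of all contigs called and 2.67% called higher. PSMD7 had 0.65 ± 0.10 (SE) with a limma adjusted p of 0.013, and PSMB3 had 0.54 ± 0.10 with 0.027. For 22 of 28 contigs each of the 3 southern controls lay above each of the 3 northern ones, against 13.7% of all contigs. Over all 16 libraries this held for 4 of 28, PSMD11, PSMD3, PSMG2 and POMP, against 3.67%.

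**Figure D4:**
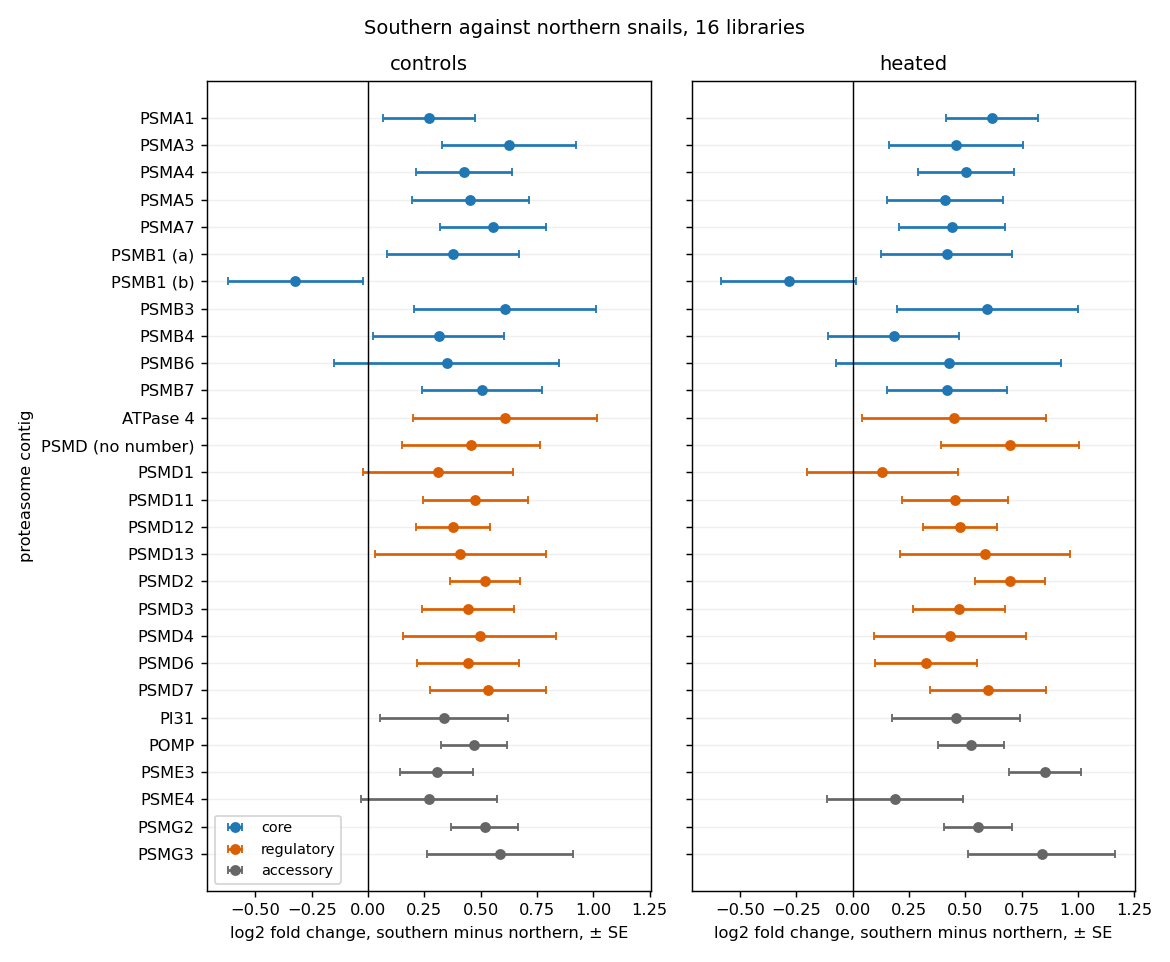
Points are log2 fold changes of southern over northern libraries in controls (left) and in heated snails (right), over 16 libraries, bars are standard errors, and colour gives the particle. In both panels 27 of 28 points lie right of 0, PSMB1 (b) lies left of it, and PSME3 on the right, at 0.85, is the one that passed the test.

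The regional difference was also there after heat. In heated snails 27 of 28 contigs were higher in the south, with a median of 0.46, against -0.03 over all contigs. Without the first heated library of La Jolla 24 were higher, with a median of 0.28. One passed in limma over 16 libraries (1.16% of all contigs did), the activator PSME3 (SR_contig_23561). This activator, PA28 gamma in mammals, sits in the nucleus and opens the core for substrates that need no ubiquitin.

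In heated snails PSME3 had 887 and 830.1 normalised reads (Slide Ranch), 1038 and 1267 (Pigeon Point), 2304 and 2080.4 (Aliso Beach) and 1603 and 1350.0 (La Jolla). All 4 southern values were above all 4 northern ones, as for PSMA7, PSMD2 and PSMG2 among the members and for 4.16% of all contigs. In controls it had 1143 and 792, 1102 and 1056, 1605 and 1344, and 1173 and 967 in the same order, and there the regions overlapped. The log2 difference in heated snails was 0.85 ± 0.16 (SE) with an adjusted p of 0.034 in limma over all contigs, 0.038 in edgeR and 0.023 without the 4 libraries. The call rests on few libraries: leaving out 1 at a time, the adjusted p rose above 0.05 without either Aliso Beach control, either heated library of Slide Ranch or Aliso Beach, the first heated library of Pigeon Point or the first of La Jolla, up to 0.158, while the difference stayed between 0.78 and 0.93. The 2 southern sites were not level, since La Jolla minus Aliso Beach was -0.52 over both treatments.

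In the 12 libraries 9 of 28 contigs were higher in heated southern snails, against 9.37% of all contigs called and 5.39% called higher. These were the core subunits PSMA1, PSMB1 (a) and PSMB3, the regulatory PSMD2, PSMD3, PSMD7, PSMD13 and the PSMD contig without a number, and PSME3. For 21 of 28 all 3 southern heated values lay above all 3 northern ones, against 16.6% of all contigs. PSMD2 (SR_contig_3242), which had the largest of these differences and was picked out after its values were seen, was at 1592 and 1404 (Slide Ranch), 1936 (Pigeon Point), 3120.1 and 3256 (Aliso Beach) and 2723 (La Jolla). Its log2 difference there was 0.79 ± 0.15 (SE; limma adjusted p 0.015), and over 16 libraries 0.70 ± 0.15 (adjusted p 0.059). The controls and the heated snails are different libraries, but each comparison shares its sites with the other.

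Between the sites of 1 region no contig passed. Pigeon Point was above Slide Ranch for 26 of 28 contigs over both treatments, with a median of 0.37 (0.23 without either first Pigeon Point library). Limma called 0 of 28, against 0.713% of all contigs. An unadjusted p under 0.05 in limma was reached by 2 members, and by 1413 of all 14444 contigs. Without the 4 libraries, 1 of each Pigeon Point pair among them, the median was 0.08 and 0 of 28 were called (2.09% of all). La Jolla was above Aliso Beach for 19 of 28. Limma again called 0 of 28 (0.36% of all), with 2 members and 1533 of all contigs at an unadjusted p under 0.05. The median was 0.12, and ran from -0.08 (without the first heated library of La Jolla) to 0.36 (without the second). It was 0.00 and 0.26 without the first and second La Jolla control. Without the 4 libraries this direction turned: 26 of 28 were lower at La Jolla, with a median of -0.18, and 0 were called (1.23% of all). EdgeR and DESeq2 called 0 of 28 in both site comparisons.

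The 4 libraries that stand apart held more of most proteasome transcripts than the second library of their group. The mean log2 difference, replicate 1 minus replicate 2 over those 4 pairs, had a median of 0.80 over core contigs (0.45 to 1.60) and 0.74 over regulatory contigs (-0.38 to 1.27), but of 0.04 over accessory ones (-0.83 to 0.19). In the 4 pairs of Slide Ranch and Aliso Beach these medians were 0.12, 0.13 and 0.07. The highest were PSMB6 at 1.60, PSMB3 at 1.29, ATPase 4 at 1.27 and PSMD13 at 1.18, and the lowest were PSME4 at -0.83, PSMD3 at -0.38, PSMD12 at -0.35 and PSMD2 at -0.14, all named after their values were seen. PSMB6 had 2977 and 873 reads in the Pigeon Point controls and 5207 and 1485 in the heated pair of La Jolla, while PSMD12 had 1397 and 1814, and 2255 and 2701. In all 4 pairs with a library that stands apart, 10 of 11 core and 8 of 11 regulatory contigs were higher, and PSMD12 was lower. The share of all contigs with the same sign in all 4 was not computed, so these counts have no background beside them. Ribosomal protein contigs had medians of 1.03 to 1.18 in the same pairs, and all contigs medians of -0.03 to 0.00. Tissue markers differed in these pairs too: the medians were 0.56 to 0.80 for digestive gland enzymes, 0.25 to 0.80 for ovary and egg, -0.88 to 0.00 for muscle, -1.79 to -0.31 for blood pigment and -0.53 to -0.19 for testis and sperm. The part of these tissues in the proteasome values was not tested.

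**Figure D5:**
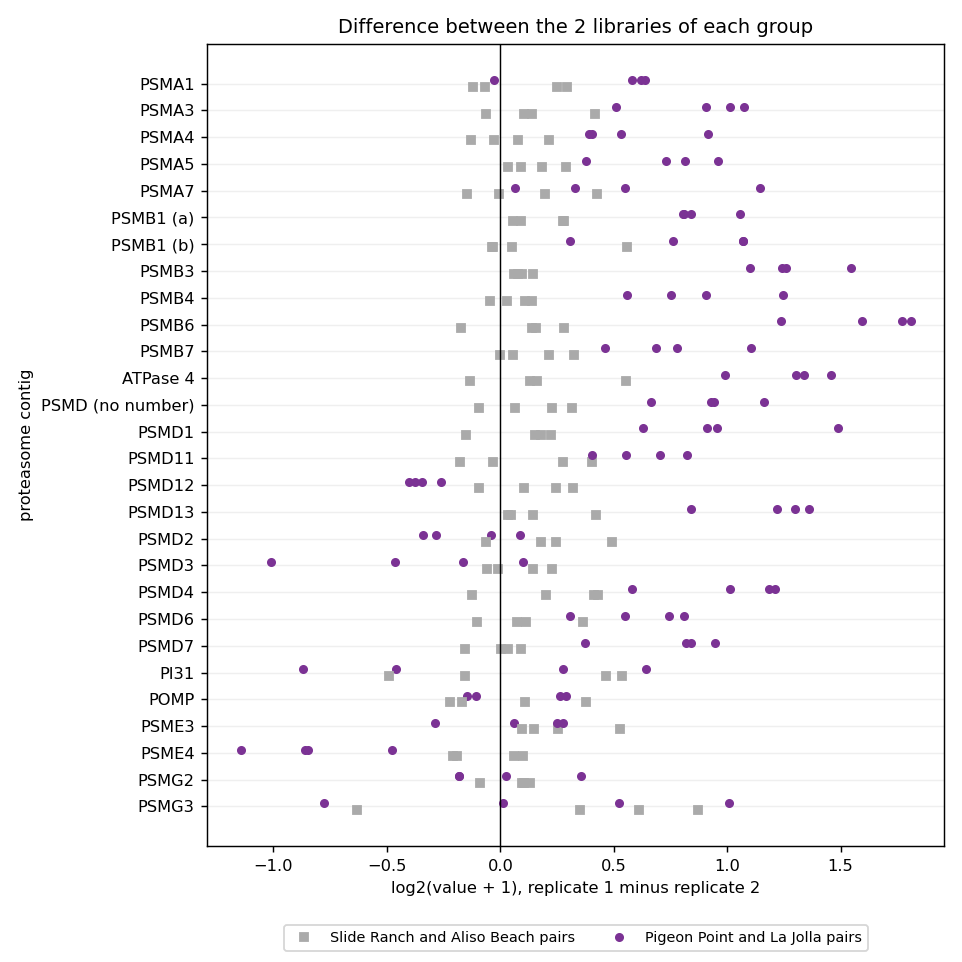
For each contig, the log2 difference between replicate 1 and replicate 2 in each of the 8 groups (purple circles: the 4 pairs whose first library stands apart; grey squares: the 4 other pairs). PSMB6 reaches 1.81 in the heated La Jolla pair, PSMD12 and PSME4 lie left of 0 in all 4 purple pairs, and the grey squares stay nearer 0 for most contigs.

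Across libraries, the mean level of the core contigs relative to that of the regulatory contigs, each contig centred on its own mean, ran from -0.21 to 0.26 on the log2 scale. It was -0.01 to 0.26 in the 4 libraries that stand apart and -0.21 to 0.10 in the others. In both northern groups the values ran from -0.09 to 0.23, and in both southern groups from -0.21 to 0.26, so the regions overlapped over all 16 libraries. Without the libraries that stand apart, southern values ran from -0.209 to -0.090 and northern ones from -0.085 to 0.102, without overlap. They did overlap there with the protease-named ATPases counted as regulatory. The second Pigeon Point control was then at -0.059 and the second Aliso Beach control at -0.045. The regional difference in this measure was not tested. By treatment, controls ran from -0.17 to 0.26 and heated libraries from -0.21 to 0.19.

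Other transcripts moved in the same comparisons. The 26 ovary and egg contigs, named for vitellogenin, vitelline and zona pellucida proteins, had 25 of 26 higher in southern controls with a median of 0.58, and 26 of 26 above 0 under heat with a median of 0.51. Their summed level was 211728 to 305938 in northern controls, 336868 to 463377 in southern controls, 279526 to 561805 in northern and 422572 to 679184 in southern heated libraries, and none of the 26 was at 0 throughout. Among 43 ribosomal protein contigs 41 were above 0 under heat, with a median of 0.38, and 36 in southern controls, with a median of 0.24. Of 33 digestive gland enzymes 30 were above 0 under heat, with a median of 0.30 and none called, and 16 in southern controls. Of 8 contigs for the folding chaperonin CCT, 4 rose under heat and the median was 0.84. Summed levels of muscle contigs had medians of 116891 in northern and 145098 in southern controls, and of 124948 in all controls and 153033 in all heated libraries. For testis and sperm these medians were 14729, 15509, 14895 and 14472. For blood pigment they were 38077, 35610, 35610 and 44554. The ranges overlapped in each of these comparisons. The part of all these lists in the proteasome differences was not tested.

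Contigs that feed the proteasome were taken from lists set by name, chosen like the members with earlier results known. Of 6 for ubiquitin and its activating enzymes 2 rose and 0 fell in limma over 16 libraries, of 3 ubiquitin shuttles 1 rose, of 3 for the segregase p97 and its cofactors 1 fell, and the 1 factor of the NRF family rose. The single proteasome-bound deubiquitinase, USP14, had 0.14 ± 0.14 (SE), with an adjusted p of 0.639 in limma. These calls have the background of 4.24% of all contigs given above.

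The ubiquitin-activating enzyme UBA1 (SR_contig_5836), the main enzyme that starts the tagging of proteins with ubiquitin, ran from 5860.3 to 8940.4 (median 7996) in the 8 controls and from 11087 to 14283 (median 12776) in the 8 heated libraries. The treatments did not overlap, and the log2 fold change was 0.75 ± 0.10 (SE; limma adjusted p 0.001). The poly-ubiquitin contig (SR_contig_33_C3.1) ran from 9307 to 24776 (median 21913) in controls and from 15624 to 33228 (median 30907) in heat. For this contig Pigeon Point was lowest in both treatments, at 12082 and 9307 in controls and 20175 and 15624 in heat. The log2 fold change was 0.55 ± 0.11 (SE, limma adjusted p 0.012). Another contig of the list, ubiquitin C variant 4 (SR_contig_19_C3.1), had a different order of sites. From north to south its controls had 7064 and 6416, 19311 and 14673, 5746 and 6212, and 22768 and 14305.

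Ubiquilin-1 (SR_contig_529_C3.1), a shuttle that carries tagged proteins to the proteasome, ran from 287 to 527 (median 493) in controls and from 574 to 921 (median 836) in heat, without overlap. Its log2 fold change was 0.81 ± 0.13 (SE; limma adjusted p 0.004). UFD1 (SR_contig_47280), a cofactor with which p97 pulls tagged proteins out of complexes, fell. From north to south it had 367 and 447, 517 and 409.5, 502 and 548, and 591 and 598 in controls, and 154 and 209, 241 and 282, 406 and 363, and 453 and 401 in heat. At every site both heated values were below both controls. The log2 fold change was -0.73 ± 0.12 (SE; limma adjusted p 0.003), and none of the 28 proteasome contigs passed in that direction. UFD1 was also higher in heated southern than in heated northern snails, by 0.90 (adjusted p 0.033), a call lost when 1 of 10 libraries was left out (both Slide Ranch and both Aliso Beach libraries of each treatment, the first heated library of Pigeon Point and the first of La Jolla; adjusted p up to 0.157).

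The contig named nuclear factor erythroid 2-related factor 2 (SR_contig_287_C3.1), in mammals a transcription factor of the oxidative stress response, ran from 6464 to 9061 (median 8119) in controls and from 7686 to 13909 (median 10513) in heat. Its log2 fold change was 0.43 ± 0.11 (SE) with an adjusted p of 0.045 in limma. The call was lost in edgeR (0.077), under TMM scaling and without any 1 library other than the first heated ones of Pigeon Point and La Jolla (up to 0.131), and was 0.002 in the 12 libraries.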

How the data were processed

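RNA of whole snails was read from both fragment ends, 100 bases each, per the labels. The deposited table holds a normalised signal, read counts that the authors divided by a size factor per library; CASAVA and DESeq appear, with no version, in the submitters' processing notes. Which assembler and mapper were run is not given in the sources used here. In each library 100% of values were whole multiples of 1 read within 0.01 read, which gave 17594009 to 26103215 recovered reads.

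Limma 3.58.1 under R 4.3.3, with its trend option, took log2(value + 1) and 1 mean for each group of 2, over the 14444 contigs with a mean of at least 10, and p-values were adjusted by Benjamini-Hochberg over all of them (threshold 0.05). Fold changes on this scale understate changes of low contigs. EdgeR 4.0.16 and DESeq2 1.42.0 on the recovered reads were alternatives. The other alternatives were pseudocounts, filters, scalings, robust shrinkage, a replicate block, leaving out each library, and, added after the data were seen, leaving out the 4 libraries that stand apart or giving them a term. The steps were tested on simulated reads. The 2 libraries of a group differed beyond counting noise (chi-square per degree of freedom 20.2 to 963).

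The members and lists were chosen with earlier results of these data known, and name patterns of the related and tissue lists were corrected after the contig names were read. Roles came from names, by hand for PSMD1 and PSMD13. Values in every library or by range are given for members with an adjusted p under 0.05, for the 2 largest heat effects and the 2 highest means of each role, and for related contigs with an adjusted p under 0.05 under heat, at most 2 a list. No contig lengths or sequences were used here, so levels are not compared between contigs. Figures were drawn with matplotlib 3.10.9.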

Additional observations from a re-analysis of the deposited data

Results flagged for a closer look

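Of 168 sets of 4 or 8 libraries examined, 36 held a library whose gap to its nearest neighbour passed Dixon's 95% limit, 7 in sets of 8 and 29 in sets of 4, over 16 of the 28 contigs. Chance gives about 1 in 20. In 35 of the 36 the library was 1 of the 4 that stand apart, and values below are normalised read counts. The exception was PSMG3, at 42.8 in the second Slide Ranch control, the lowest northern control.

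The first La Jolla control was far above the other southern controls, and above all other controls too, for PSMA3 at 2814, PSMA7 at 6657, PSMB3 at 4535, PSMB7 at 6424, ATPase 4 at 3442 and PSMD11 at 1765. Among the southern controls alone it also stood out for PSMA5 at 951, PSMB1 (b) at 275, PSMB6 at 3746 and the PSMD contig without a number at 1765, a different contig that has the same count there.

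The first Pigeon Point control stood above the other northern controls for PSMB3 at 2405, PSMB6 at 2977, PSMD1 at 5115, PSMD13 at 1669 and PSMD7 at 1921, and above all other controls for PSMB1 (b) at 428. The first heated library of Pigeon Point stood above the northern heated ones for PSMB1 (a) at 2215, PSMB3 at 2801, PSMB6 at 3336, ATPase 4 at 3444, PSMD1 at 10098, PSMD13 at 2340.2 and PSMD7 at 3005, and below them for PSME4 at 56.9.

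The first heated library of La Jolla stood above the other southern heated ones for PSMB6 at 5207, PSMB7 at 9462, PSMD1 at 7600.0, PSMD13 at 3065 and PSMD7 at 3901. Of the accessory contigs, PSME4 and PSMG3 are in these lists. The results without the 4 libraries stand beside those with them above.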

How the results depend on the processing

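Over 16 libraries none of the 28 proteasome contigs was called under heat over the 4 sites, and the count became 1 with no filter on low values, 2 in DESeq2, 12 without the 4 libraries that stand apart and 17 with a term for them. The 17 with the term were 16 higher and 1, PSME4, lower. The shares of all contigs called with the term and with no filter were not computed. The counts of those settings, here and below, therefore have no background beside them. Leaving out 1 library at a time gave 0 to 2. Heat in the north went from 0 to 2 without the 4 and 5 with the term, and heat in the south from 0 to 5 with the term. Between regions, controls went from 0 to 1 in DESeq2, 4 without the 4 and 12 with the term. Heated snails went from 1 to 2 with no filter, 4 in DESeq2, 9 without the 4 and 18 with the term, and to 0 to 1 with 1 library left out. DESeq2 called 9.09% of all contigs under heat, 2.4% between the regions' controls and 5.59% between their heated libraries. With replicate numbers as a block the counts were 16 for heat over the 4 sites (21.4% of all contigs called), 4 in the north (7.75%) and 4 in the south (6.09%). The 16 were 15 higher and 1, PSME4, lower, where 12.2% of all contigs were called higher and 9.26% lower. Deviations of same-numbered libraries correlated at -0.06 for Slide Ranch, 0.69 for Pigeon Point, 0.10 for Aliso Beach and 0.64 for La Jolla. Same-numbered libraries thus went together at Pigeon Point and La Jolla, whose first libraries stand apart. The labels name no animal, batch or day that same-numbered libraries share. The numbers were not taken as pairs, and the count of heat calls depends on that choice. The block was not run between sites, which share only numbers. The counts for the difference between regional heat effects and for the sites of 1 region stayed at 0 in the settings run. For heat averaged over the 4 sites, the core minus regulatory difference moved by less than its spread between sites, though it turned from -0.05 to 0.03 without the 4. In other comparisons it moved too. Without the 4, the heat difference went from -0.04 to 0.10 at Pigeon Point and from -0.22 to -0.09 at La Jolla. Between regions it went from -0.03 to -0.08 in controls and from -0.05 to -0.16 in heated snails. For La Jolla against Aliso Beach it went from 0.13 to -0.02. Of the values of single contigs under other settings, 6553 stayed on their side of the threshold (6278 with the same sign), 123 passed it and 34 lost it. The sign turned in 275, none of them past the threshold in either fit.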
